A study of Homo sapiens with 6 samples.

Results

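The regions described here are SMARCA4 peaks of K562 cells that lie inside protein-coding sequence and away from promoters. A peak was counted when its midpoint fell in a coding interval of a protein-coding transcript and was more than 1 kb from the start of every annotated transcript, coding or not. Of 28265 peaks in all, 196 met this rule (0.693%, 95% Wilson interval 0.603 to 0.797%), and they lay in 187 genes. K562, the cells used, is an established line from a human chronic myelogenous leukaemia, with erythroid and megakaryocytic features. SMARCA4 was mapped by ChIP-seq, which recovers and sequences the DNA fragments crosslinked to a protein, to compare its binding sites with G-quadruplexes (G4s), folded structures of guanine-rich DNA. Crosslinking used disuccinimidyl glutarate at 2 mM (30 min) followed by formaldehyde at 1% (10 min), and chromatin was sheared to 150 to 400 bp, for 3 SMARCA4 ChIP libraries and 3 input libraries. The study's text calls these biological replicates, but the series description names them technical ones and counts a single input. The peak list pools them and holds a start and an end for each region, with no height, no value per library and no depth, so no spread between replicates can be given. Intervals below cover counting error only, and neighbouring regions are not independent.

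SMARCA4 (BRG1) is an ATPase of the SWI/SNF complexes, which slide and evict nucleosomes and are found at promoters and enhancers. Coding exons are under selection for the protein they encode, and they tend to be richer in GC than the introns around them. A stretch of exon can also hold recognition sequences of transcription factors, and some exons act as enhancers of their own or of neighbouring genes. In the erythroid lineage, GATA1 and GATA2 bind many distal regulatory elements.

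Sequences of 8 peak centres are shown as examples that differ in base composition and in the motifs they hold. Each is the central 200 bp of a peak on hg19, written 5′ to 3′ on the strand of the gene, and none holds untranslated sequence. Capitals mark GATA motifs (GATA flanked by A or T on the 5′ side and by A or G on the 3′ side, either strand) in PSMD10, ANKDD1B, OR52A1 and EPB41. They mark a G4 motif in KLF1 and SBNO2, the SP motif GGGCGG or its reverse complement in C6orf132, and the CTCF motif in C17orf50, which was picked after its values were seen. In KLF1 the guanine runs are on the strand opposite to the one printed.
PSMD10, chrX:107331926-107332125, minus strand: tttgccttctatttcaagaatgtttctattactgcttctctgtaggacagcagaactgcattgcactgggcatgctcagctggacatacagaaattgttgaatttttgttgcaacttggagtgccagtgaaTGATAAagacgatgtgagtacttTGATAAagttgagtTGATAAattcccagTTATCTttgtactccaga
ANKDD1B, chr5:74916048-74916247, plus strand: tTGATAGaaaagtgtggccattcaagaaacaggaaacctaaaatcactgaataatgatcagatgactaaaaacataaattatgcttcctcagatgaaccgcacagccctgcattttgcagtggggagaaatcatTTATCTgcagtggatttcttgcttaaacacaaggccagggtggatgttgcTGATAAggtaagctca
OR52A1, chr11:5172979-5173178, minus strand: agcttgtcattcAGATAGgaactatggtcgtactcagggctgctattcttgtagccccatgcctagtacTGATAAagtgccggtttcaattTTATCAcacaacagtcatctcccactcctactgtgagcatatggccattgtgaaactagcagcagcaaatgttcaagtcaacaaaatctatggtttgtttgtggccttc
EPB41, chr1:29359605-29359804, plus strand: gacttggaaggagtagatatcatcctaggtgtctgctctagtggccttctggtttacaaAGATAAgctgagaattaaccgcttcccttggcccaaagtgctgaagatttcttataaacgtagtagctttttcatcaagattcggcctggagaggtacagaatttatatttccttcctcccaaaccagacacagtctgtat
KLF1, chr19:12996485-12996684, minus strand: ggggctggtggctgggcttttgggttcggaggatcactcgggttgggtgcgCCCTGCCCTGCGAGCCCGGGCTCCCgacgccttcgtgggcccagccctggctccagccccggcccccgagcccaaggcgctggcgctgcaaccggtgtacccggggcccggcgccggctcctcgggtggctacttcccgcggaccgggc
SBNO2, chr19:1113458-1113657, minus strand: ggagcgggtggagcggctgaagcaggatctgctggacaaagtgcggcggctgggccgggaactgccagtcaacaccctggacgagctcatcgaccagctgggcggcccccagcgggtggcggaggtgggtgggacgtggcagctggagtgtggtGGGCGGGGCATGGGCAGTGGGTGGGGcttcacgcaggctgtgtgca
C6orf132, chr6:42072159-42072358, minus strand: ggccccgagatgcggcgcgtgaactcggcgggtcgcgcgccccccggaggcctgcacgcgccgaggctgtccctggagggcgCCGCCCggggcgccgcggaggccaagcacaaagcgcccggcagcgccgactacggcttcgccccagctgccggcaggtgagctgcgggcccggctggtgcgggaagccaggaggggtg
C17orf50, chr17:34091159-34091358, plus strand: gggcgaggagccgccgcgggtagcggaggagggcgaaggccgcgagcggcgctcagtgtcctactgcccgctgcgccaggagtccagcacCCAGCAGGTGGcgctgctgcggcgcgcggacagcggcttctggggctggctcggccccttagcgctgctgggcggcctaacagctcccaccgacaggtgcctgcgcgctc

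GC content of these windows ran from 38.5% in PSMD10 to 79% in C6orf132. All 200 bases were coding in OR52A1 and KLF1. In PSMD10 and ANKDD1B 99 bases were coding, in EPB41 153, in SBNO2 124, in C6orf132 158 and in C17orf50 186, and the other bases were intronic. In PSMD10, the gene of the proteasome assembly chaperone gankyrin, 1 of the 4 GATA motifs was wholly in coding sequence. In OR52A1, an olfactory receptor gene, all 3 were coding.

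Coding sequence more than 1 kb from a start is a small territory, 22.5 Mb against 1046 Mb of distal intron, so counts were set against length. Distal coding sequence held 8.72 peaks per Mb (95% exact interval 7.54 to 10.0), and distal introns of coding genes held 6.30 (6.15 to 6.46), from 6596 peaks. The ratio was 1.38 (interval 1.19 to 1.59, exact conditional binomial test, two-sided, p = 1.88e-05). Intergenic sequence held 4.73 peaks per Mb, and the ratio of coding to intergenic density was 1.84 (1.59 to 2.13). Distal exons outside coding sequence held 9.81 per Mb, from which coding sequence did not differ by this test (ratio 0.889, interval 0.755 to 1.04, exact p = 0.149). Distal coding sequence lies nearer to starts than distal intron does, with 4.29 Mb of it against 84.4 Mb of intron from over 1 to 2 kb, and 6.65 Mb against 570 Mb beyond 10 kb. Within classes of distance, a comparison added after seeing the data, the ratio of coding to intronic density was 1.15 (0.878 to 1.49) from over 1 to 2 kb, 1.11 (0.846 to 1.43) from over 2 to 5 kb, 0.969 (0.672 to 1.35) from over 5 to 10 kb and 1.29 (0.909 to 1.79) beyond 10 kb. None of these 4 ratios passed the exact test (lowest adjusted p = 0.526), and the Mantel-Haenszel ratio over the classes was 1.12 (n = 196 coding-exon peaks, 0.975 to 1.30, p = 0.107). When a peak had to lie in coding sequence over at least 50% of its width, in place of its midpoint, the density ratio was 1.01 (exact p = 0.899). A wide peak centred in a short exon can fail this rule by its width alone, and 100 of the 196 peaks were wider than their exon. The part of this in the ratio was not tested.

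**Figure D1:**
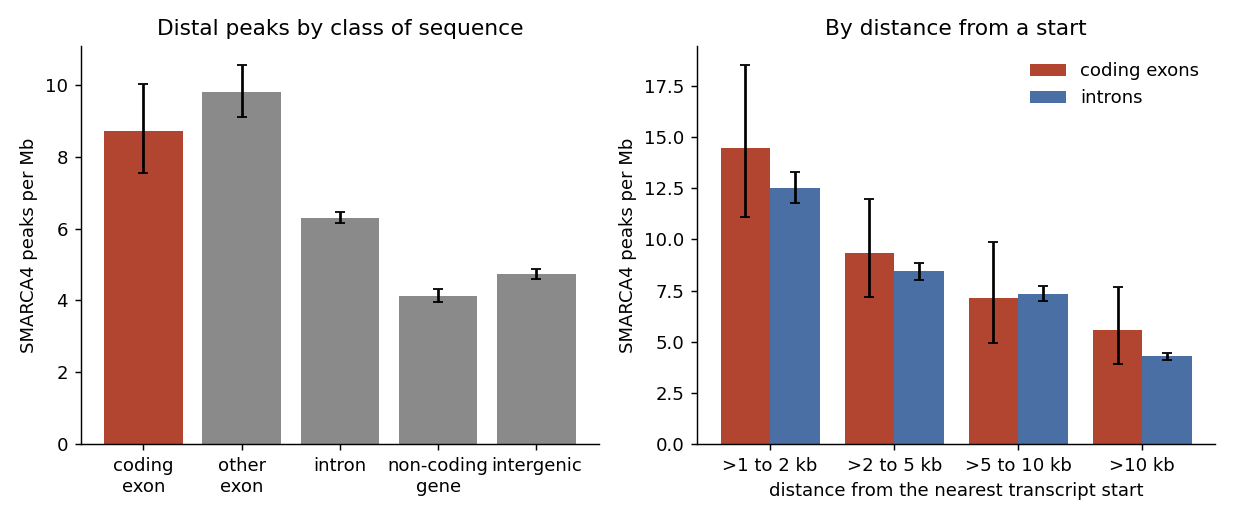
Density of distal SMARCA4 peaks in peaks per Mb (bars, with 95% exact Poisson intervals) by class of sequence on the left, and for coding exons and introns by distance from the nearest transcript start on the right. Coding exons hold 8.72 and introns 6.30 peaks per Mb in all, and within each class of distance the intronic value lies inside the interval of the coding value.

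Most SMARCA4 peaks in coding sequence are promoter-proximal, since 928 of 1124 (82.6%) were within 1 kb of a start and so were not counted among the 196. These had a median width of 386.5 bp and a median GC content of 70%. The coding-exon peaks were a median of 2933.5 bp from the nearest start (quartiles 1744 and 7546.75 bp), and the farthest, in SVEP1, an extracellular matrix gene, was 53105 bp away. Near the limit, the closest members were in CCDC194 at 1005 bp, LIN28B at 1021 bp and CELSR3 at 1038 bp, and peaks not counted included those in MYO15B at 990 bp and ATF6B at 971 bp. From 1001 to 1100 bp there were 10 coding-exon peaks, with a median GC content of 65%, and from 900 to 1000 bp 13 peaks in coding sequence, with a median of 60.5%. The rule uses the midpoint only, and 1 of the 196 peaks, that of PPP1R15A, reached across a transcript start.

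The coding-exon peaks were somewhat narrower than distal intronic peaks. Their median width was 303.5 bp (quartiles 221 and 436.25 bp) against 337 bp (229 and 519 bp). Widths of at least 336 bp, the median of both classes together, were found for 42.3% of coding-exon and 50.3% of intronic peaks (odds ratio 0.727, interval 0.545 to 0.968, Fisher's exact test, two-sided, p = 0.0297). Widths ran from 12 to 4895 bp, and 39 peaks (19.9%) were under 200 bp. For these, the central 200 bp used for GC content and motifs reach past the peak. The difference did not pass the test among peaks more than 2 kb from every start (odds ratio 0.710, exact p = 0.0546).

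The 10 widest peaks ran from 873 to 4895 bp, and 6 of them were on chromosome 19. The widest was centred 1427 bp from the start in exon 2 of PPP1R15A (chr19:49375304-49380198), whose product directs a phosphatase to the translation factor eIF2. KLF1, the gene of an erythroid transcription factor, held a peak of 1878 bp over its exon 2 (chr19:12995646-12997523) with a GC content of 76.5% at the centre. PRR36 followed with 1748 bp. F2RL3, which encodes a thrombin receptor of platelets, held 1502 bp and GDF15, the gene of a stress-induced cytokine, 1215 bp, each centred in the last exon and crossing 1 exon boundary. ANK3, the ankyrin-G gene, held 968 bp wholly inside an exon of 7812 bp, with a GC content of 40.5%. The receptor tyrosine kinase gene ERBB2 held 921 bp centred in exon 19 of 27, an exon of 99 bp. The peak crossed 4 exon boundaries, and 222 bp of it (24.1%) were coding. UNC13A, a gene of synaptic vesicle priming, held 914 bp, the RNA helicase gene DDX56 904 bp and C6orf132 873 bp. At ERBB2, 94.1% of 75-base reads cut from the peak mapped to 1 place, and at GDF15 95.7%.

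A peak in a coding exon was seldom wholly coding. The exon at the midpoint had a median length of 245.5 bp (quartiles 144 and 1215.5 bp), untranslated bases included, and 100 of the 196 peaks were wider than it. The median share of a peak in coding sequence was 62.9%. Of the 196, 44 (22.4%) lay wholly inside the coding part of 1 exon, 137 (69.9%) crossed at least 1 exon boundary of the transcript, and 74 crossed 2 or more. In the central 200 bp, 74.96% of bases were coding.

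Last coding exons held more of the peaks than of the sequence. Ranked in the canonical transcript where it covers the midpoint, 58 of 196 peaks (29.6%, Wilson interval 23.6 to 36.3%) were in the last coding exon. Last coding exons hold 19.5% of the distal coding bases assigned to an exon position. Those bases are somewhat fewer than the 22.5 Mb of all distal coding sequence. Peaks in short transcripts were ranked as well, as in RPRD1B, where the transcript had 187 coding bp. Internal coding exons had 119 peaks (60.7%, 53.7 to 67.3%) and 71.2% of the bases. The first coding exon had 8 peaks (4.08%, 2.08 to 7.85%) and 4.03% of the bases, and genes with a single coding exon had 11 (5.61%, 3.16 to 9.77%) and 5.25%. Counting all exons from the 5′ end, 5 peaks were in exon 1, 40 in exon 2, 18 in exon 3, 31 in exon 4 and 53 (27.0%) in exon 10 or beyond. Peaks in last coding exons had a median GC content of 67% and a median exon length of 1127 bp, against 55% and 162 bp for internal exons. Exons whose coding part was 1000 bp or more held 28 peaks (14.3%, 10.1 to 19.9%) and 18.9% of the bases, which lies inside that interval. With untranslated bases counted in the exon's length, 54 peaks were in exons of 1000 bp or more.

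**Figure D2:**
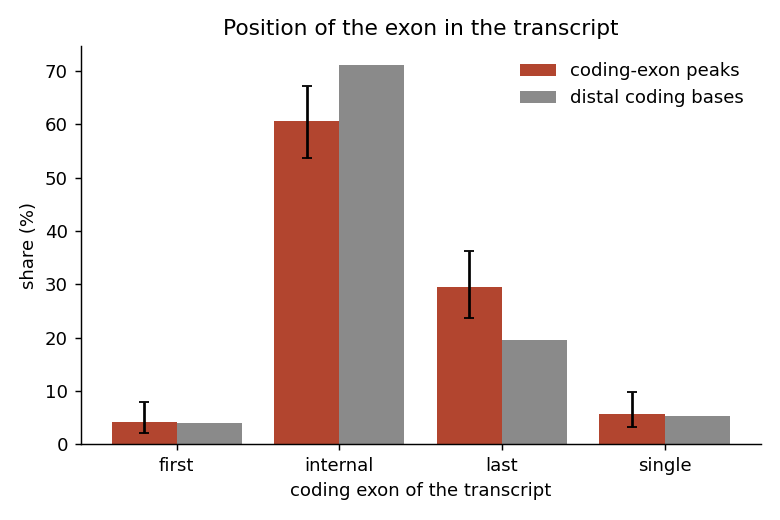
Share of the 196 coding-exon peaks (red, with 95% Wilson intervals) and of the distal coding bases assigned to an exon position (grey), in percent, by position of the coding exon in the transcript. The last coding exon holds 29.6% of the peaks and 19.5% of the bases, and internal exons 60.7% and 71.2%.

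GC content set the coding-exon peaks apart from distal intronic peaks. The central 200 bp had a median GC content of 59.5% (quartiles 47.375 and 69%) against 46% (40.5 and 52%) in intronic peaks. At least 46%, the median of both classes together, was reached by 79.6% and 50.7% (odds ratio 3.79, interval 2.67 to 5.39, Fisher's exact test, two-sided, p = 2.37e-16). The median over 128139 windows of 200 bp at the middle of every distal coding interval was 46% too, below the median of these peaks. Each interval gave 1 window whatever its length, and a window at a shorter interval takes in flanking sequence. The windows were not matched to the peaks for exon length, coding share or distance from a start. In the 171 peaks whose gene had other such windows, the peak was higher than the median of the gene's own windows in 113 and lower in 55, with a median difference of 3 percentage points (quartiles -1.5 and 8.375).

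The values were spread widely, from 33% to 84%. Under 50% GC there were 59 peaks (30.1%), from 50 to under 65% there were 61 (31.1%), and at 65% or more 76 (38.8%). The same classes held 66.4%, 29.2% and 4.32% of intronic peaks, and 60.1%, 34.0% and 5.91% of exon windows. The GC-rich class had a median of 23 CpG dinucleotides per 200 bp and the class under 50% a median of 3. In the GC-rich class 30 of 76 peaks (39.5%) were in last coding exons, and in the class under 50% 13 of 59 (22.03%). The median exon length was 480 bp and 174 bp.

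**Figure D3:**
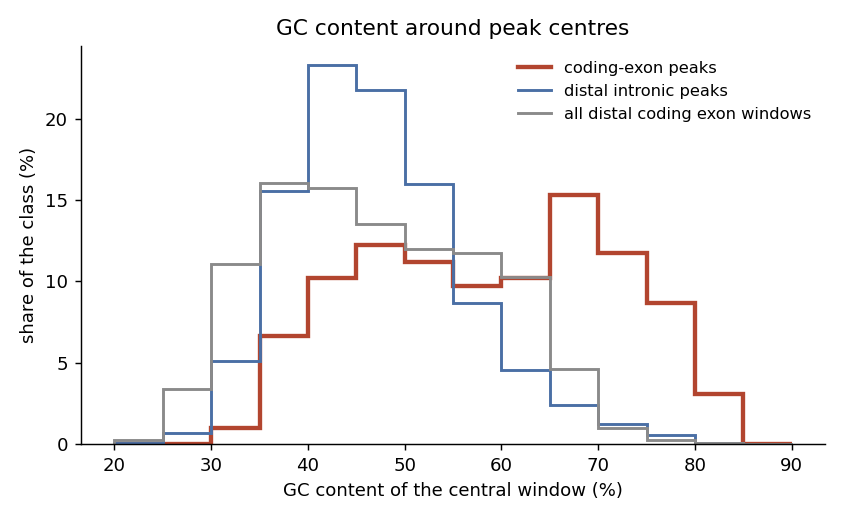
Distribution of GC content in percent over the central 200 bp of 196 coding-exon peaks (red), 6596 distal intronic peaks (blue) and 128139 windows at all distal coding exons (grey), as the share of each class per bin of 5 percentage points. The red line has its highest bin from 65 to 70%, where intronic peaks and exon windows are few.

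Chromosome 19, which is dense in genes and rich in GC, held 40 of the 196 peaks (20.4%) on 1.41 Mb of distal coding sequence. That is 28.4 per Mb (interval 20.3 to 38.6) and 3.83 times the density of the other chromosomes (2.64 to 5.45, exact conditional binomial test, two-sided, p = 3.62e-11). The intronic density on chromosome 19 was also higher, by 2.67 times (2.38 to 2.97). The median GC content was 69.75% for the 40 peaks and 54.5% for the other 156. Without chromosome 19 the ratio of coding to intronic density was 1.21 (1.03 to 1.42, exact p = 0.0206). Chromosome 1 held 22 peaks and chromosome 6 14. Chromosome 18 held 0 on 0.368 Mb of distal coding sequence (interval 0 to 10.0 per Mb). Chromosome Y held 0 on 0.0496 Mb, and its intronic density was 0 as well.

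Without regard to GC content, GATA and AP-1 motifs were less frequent than in distal intronic peaks. SP, KLF, CTCF and E-box motifs were more frequent. Within GC classes of 2 percentage points, described below, the odds ratios of SP (0.586) and KLF (0.464) lay below 1. The GATA motif was in the central 200 bp of 64 coding-exon peaks (32.7%, Wilson interval 26.5 to 39.5%) and of 65.7% of intronic peaks (odds ratio 0.253, interval 0.187 to 0.342, Fisher's exact test, two-sided, adjusted p = 3.02e-19 over 12 motifs). It was in 27.2% of all exon windows of the same length. AP-1 (TGANTCA with C or G at N) was in 18 peaks (9.18%) and 19.5% of intronic peaks (odds ratio 0.418, adjusted exact p = 0.000569), but in 2.60% of exon windows. The SP motif was in 50 peaks (25.5%), 8.66% of intronic peaks and 5.79% of exon windows (odds ratio 3.61 against intronic peaks, adjusted exact p = 4.41e-11). The CTCF motif was in 12 (6.12%), 2.12% and 0.414% (odds ratio 3.01, adjusted exact p = 0.00423), and KLF (CCNCNCCC) in 62 (31.6%), 23.03% and 14.6% (odds ratio 1.55, adjusted exact p = 0.0183). The E-box CAGCTG was in 42 (21.4%), 15.2% and 14.1% (odds ratio 1.52, adjusted exact p = 0.0419).

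The other 6 motifs did not pass the test in the central 200 bp. RUNX (TGTGGT) was in 11.7% of coding-exon peaks, 15.98% of intronic peaks and 12.5% of exon windows, STAT (TTCNNNGAA) in 6.63%, 8.88% and 6.68%, and YY1 (GCCATNTT) in 4.59%, 3.38% and 3.37%. RUNX motifs were fewer than in intronic peaks over the whole peak (odds ratio 0.566, adjusted exact p = 0.00337) and in the central 400 bp (0.618, adjusted exact p = 0.0152), and STAT motifs over the whole peak (0.456, adjusted exact p = 0.00337) but not in the central 400 bp (0.673, adjusted exact p = 0.135). Coding-exon peaks were also narrower than intronic ones (medians 303.5 and 337 bp), and the part of width in the whole-peak values was not tested. Within GC classes of 2 percentage points neither passed, with Mantel-Haenszel odds ratios of 0.964 for RUNX (n = 196 peaks, adjusted p = 0.965) and 1.19 for STAT (adjusted p = 0.782). In the central 200 bp, the ETS, CRE and NRF1 motifs were in 0 of 196 peaks, which allows a share of up to 1.53% (3 counts of 196). ETS (CCGGAAGT) was in 0.318% of exon windows, CRE (TGACGTCA) in 0.120% and NRF1 in 0.00390%. Of the 196 peaks, 34 held none of the 12 motifs and no G4 motif in the central 200 bp. Some of these held G4 motifs elsewhere in the peak, as did GRIN2D with 3.

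Several of these ratios differed once peaks of like GC content were compared. Within GC classes of 2 percentage points, the Mantel-Haenszel odds ratio was 0.603 for GATA (n = 196 peaks, 0.4197 to 0.866, adjusted p = 0.0457), so GATA motifs were still fewer than in intronic peaks of like GC content. Over the same n = 196 peaks it was 0.464 for KLF (adjusted p = 0.000403) and 0.586 for SP (adjusted p = 0.0584), both on the other side of 1 from the crude value. AP-1 (0.593, adjusted p = 0.147), CTCF (1.39, adjusted p = 0.634) and E-box (1.35, adjusted p = 0.308) kept their side of 1 and did not pass this test with n = 196 peaks. Without chromosome 19 the crude KLF ratio was 1.21 (Fisher's exact test, adjusted p = 0.479) and that of the E-box 1.54 (adjusted p = 0.0789). The E-box result was also lost with autosomes only (odds ratio 1.48, adjusted exact p = 0.0674), beyond 2 kb from every start (1.45, adjusted exact p = 0.180), with at least 50% of the peak coding (1.28, adjusted exact p = 0.413), with peaks at most 500 bp apart merged (1.52, adjusted exact p = 0.0767) and among peaks where at least 95% of reads mapped to 1 place (1.496, adjusted exact p = 0.0547). It was kept over the whole peak (1.83, adjusted exact p = 0.000294) and in the central 400 bp (1.65, adjusted exact p = 0.00334).

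**Figure D4:**
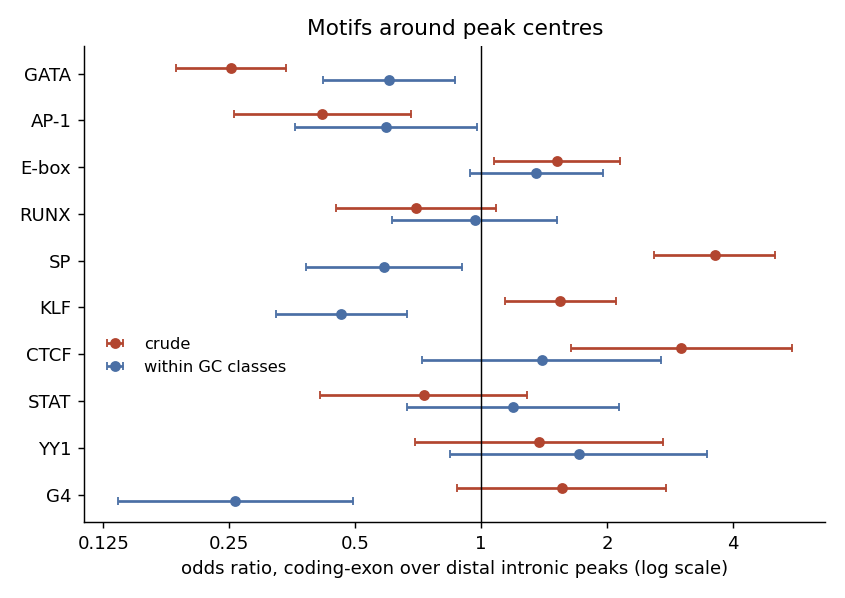
Odds ratio (log scale, with 95% intervals) of a motif in the central 200 bp of coding-exon peaks over distal intronic peaks, crude (red) and within GC classes of 2 percentage points (blue). SP, KLF and G4 lie above 1 in the crude comparison (3.61, 1.55 and 1.56) and below 1 within GC classes (0.586, 0.464 and 0.258), and GATA lies below 1 in both.

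The coding-exon peaks with GATA motifs were mostly poor in GC and far from starts. Under 50% GC, 37 of 59 peaks (62.7%) held the motif, beside 75.4% of intronic peaks and 37.6% of exon windows in that GC range. From 50 to under 65% the shares were 41.0%, 51.5% and 12.98%, and at 65% or more 2.63% (2 of 76 peaks), 12.6% and 3.35%. By distance from a start, 10 of 62 peaks (16.1%) from over 1 to 2 kb held a GATA motif, 16 of 62 (25.8%) from over 2 to 5 kb, 18 of 35 (51.4%) from over 5 to 10 kb and 20 of 37 (54.1%) beyond 10 kb. The median GC content of these classes was 62.5%, 61.75%, 56.5% and 53%. SP motifs were in 22.6%, 30.6%, 25.7% and 21.6%. In all, 98 GATA motifs were counted, of which 66 (67.3%) were wholly in coding sequence. Of the 64 peaks with a GATA motif, 45 had at least 1 in coding sequence, and 7 also held an SP motif.

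**Figure D5:**
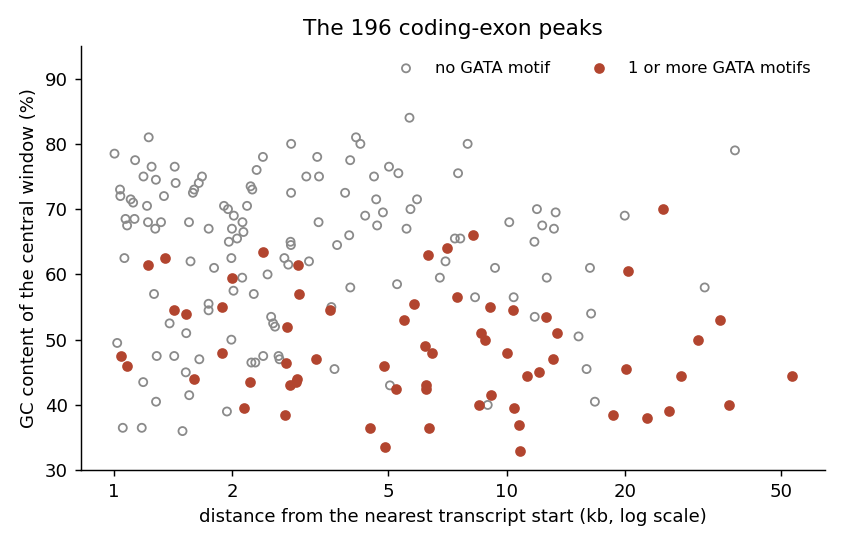
GC content of the central 200 bp in percent against distance from the nearest transcript start in kb (log scale) for the 196 coding-exon peaks, with 64 peaks that hold a GATA motif as filled points and 132 that hold none as open points. Filled points lie mostly below 60% GC, and their share is 16.1% from over 1 to 2 kb and 54.1% beyond 10 kb.

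More than 1 GATA motif was found in 22 of the peaks, and 11 held 3 or more. PSMD10 had 4 in a peak of 709 bp around exon 2 (chrX:107331672-107332380). The following had 3 each. RHBDL2, a rhomboid protease gene, had them in a peak of 455 bp around exon 3, 11237 bp from the nearest start, with 2 wholly coding. BAMBI, which encodes a decoy receptor of TGF-beta signalling, had them around the end of its coding sequence in the last exon, with 1 wholly coding. CCNT1, the cyclin T1 gene of the elongation factor P-TEFb, had 3 in the 5979-bp last exon, all coding. In CSPG5, a proteoglycan gene, and VPS45, a gene of vesicle transport, all 3 were coding as well. SVEP1 had 3 around exon 31 of 48, 2 of them wholly coding, and ANKDD1B and OR52A1 are shown above. In TEX15, a gene of male meiosis, the peak was inside an exon of 7313 bp.

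G4 motifs were searched on both strands as 4 guanine runs, each of 3 bases or more, joined by loops no longer than 7 bases, and were in the central 200 bp of 13 coding-exon peaks (6.63%, Wilson interval 3.92 to 11.0%). They were in 4.37% of distal intronic peaks (odds ratio 1.56, interval 0.876 to 2.76, Fisher's exact test, two-sided, p = 0.154) and in 3.62% of exon windows. In MYBPC3, whose 151-bp peak is counted among the 13, the motif was not wholly inside the peak. The answer depended on the setting. Over the whole peak the odds ratio was 2.97 (2.05 to 4.29, exact p = 1.58e-07), and in the central 400 bp it was 3.75 (p = 8.02e-12). The 400-bp window reaches past a peak of the median width, 303.5 bp. Neither of these 2 settings was compared within GC classes. In the central 200 bp the odds ratio within GC classes was 0.258 (Mantel-Haenszel, n = 196 peaks, 0.135 to 0.493, p = 1.92e-05), that is, fewer G4 motifs than in intronic peaks of like GC content. Without chromosome 19 it was 0.961 (exact p = 1). Over whole peaks, 37 of the 196 held 57 motifs, 28 with the guanines on the coding strand and 29 on the template strand. The 5 widest peaks with a G4 motif at the centre, which held 1 each, were in KLF1, SBNO2, SYNPO, HES7 and CCDC124. SYNPO encodes an actin-binding protein of podocytes and neurons, and HES7 a repressor of the segmentation clock. The whole KLF1 peak held 5 motifs, and those of SYNPO and HES7 3 each.

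Few genes held more than 1 coding-exon peak. There were 8 of 187 (4.28%), with 17 peaks. ZFP36L2, which encodes a protein that destabilises AU-rich mRNAs, had 3, of 436, 272 and 264 bp, in its last exon (chr2:43451424-43452832 in all), with GC contents of 68.5%, 70.5% and 73%. SOCS1, a feedback inhibitor gene of cytokine signalling, had 2, of 205 and 109 bp, with GC contents of 74.5% and 68.5%. The Notch ligand gene DLL3 had 2 with GC contents of 77.5% and 80%, 3998 and 7956 bp from a start. FCRLB, an Fc receptor-like gene, had 2 centred in adjoining exons. MAST1, a kinase gene, had 1 at exon 2 and 1 at exon 19. ANKDD1B had 1 at exon 3 and 1 at exon 13, both with GATA motifs, and TEX15 had 2 in a single exon. Distal coding length was 1.284 kb for ZFP36L2, 0.354 kb for SOCS1 and 8.216 kb for TEX15, against a median of 0.853 kb over the 17921 genes with any. With peaks at most 500 bp apart merged, 4 genes held several, as did 4 at more than 2 kb from every start.

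Having another SMARCA4 peak nearby did not set the coding-exon peaks apart from intronic ones by the test run. Within 5 kb there was another peak for 99 (50.5%), and for 44.3% of intronic peaks (odds ratio 1.28, interval 0.966 to 1.71, Fisher's exact test, two-sided, p = 0.0933). Another peak lay within 500 bp of 41 coding-exon peaks (20.9%), and the smallest gap was 1 bp. The share of intronic peaks at 500 bp was not compared. A promoter peak of the same gene, with its midpoint within 1 kb of a start of any of the gene's transcripts, was found for 117 of the 187 genes (62.6%, Wilson interval 55.4 to 69.2%). By this rule PPP1R15A, whose peak of 4895 bp reached across its own start, counts among the genes without a promoter peak. Among genes with distal intronic peaks and no coding-exon peak it was found for 2472 of 3471 (71.2%), and the odds ratio was 0.675 (0.498 to 0.916, Fisher's exact test, two-sided, p = 0.0132). Over all 19821 coding genes it was 47.7%. The genes compared differ in size, with a median length of 22.8 kb and 5 transcript starts for genes with a coding-exon peak, and 78.6 kb and 8 starts for the others. The part of this difference in the result was not tested. With only starts of coding transcripts counted for the distance rule, the odds ratio was 0.997 (exact p = 1), and among peaks of at least 200 bp 0.731 (p = 0.0740). By distance, a promoter peak of the gene accompanied 82.3% of coding-exon peaks from over 1 to 2 kb and 37.8% beyond 10 kb.

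Among the 17921 coding genes with distal coding sequence, 1.04% held a coding-exon peak, and the gene lists are read beside that share. Of 12 erythroid transcription factor genes, 2 held one. These were KLF1 and GATA2, a gene of blood stem and progenitor cells, whose 285-bp peak was around exon 4 (chr3:128202580-128202864) at 61% GC with no GATA motif at its centre. Of 31 genes of the red cell membrane, haem and iron, 2 held one. EPB41, which encodes protein 4.1 of the membrane skeleton, had 706 bp around exon 9 (chr1:29359352-29360057) with 1 GATA motif, in coding sequence. FTH1, the ferritin heavy chain gene, had 35 bp across 1 boundary of exon 2. There were 0 among 10 megakaryocyte genes, 0 among 21 genes of SWI/SNF subunits, 0 among 23 genes of histone and DNA modifiers and 0 for BCR and ABL1.

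Counts in large gene families were small, and their shares stand beside 1.04% over all genes with distal coding sequence. Of 501 ZNF genes, whose last exons encode arrays of zinc fingers, only ZNF169 held one (0.1996%), of 299 bp in its last exon. The median distal coding length was 1.533 kb for ZNF genes and 0.853 kb over all genes with any. There were 0 among 44 collagen genes and 0 among 61 protocadherin genes. Of 363 SLC genes, 3 held one (0.826%). They were SLC8B1, a mitochondrial sodium and calcium exchanger gene, with 286 bp, SLC30A3, a zinc transporter gene, with 172 bp, and SLC27A2, a fatty acid transporter gene, with 167 bp, all centred in the last exon. Of 27 HOX genes, HOXB4 held one (3.70%), of 196 bp in its last exon.

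Most of these peaks lie in sequence to which short reads map at a single place. At least 95% of 75-base reads cut from the reference mapped to 1 place for 192 of 196 coding-exon peaks (98.0%) and for 93.3% of intronic peaks (odds ratio 3.46, Fisher's exact test, two-sided, p = 0.00514).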

How the data were processed

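The authors used cutadapt to trim the reads of 3 SMARCA4 ChIP and 3 input libraries, BWA to align them to hg19, and Picard and SAMtools to remove duplicates. They called peaks in each replicate with MACS2 against input at a q-value of 0.05, and used bedtools to keep what 2 or more of the 3 replicates shared. The deposited list gives region starts and ends in bp and no depth. It was compared here with the hg19 sequence and a GENCODE annotation of that build (254376 transcripts, 89204 of them protein-coding) using scipy 1.17.1, numpy 2.4.6 and statsmodels 0.14.6 in Python 3.11.15. Regions were classed by midpoint, exons ranked in the canonical transcript where it covers the midpoint, and motifs searched on both strands. Motif p-values were adjusted by Benjamini-Hochberg. Reads of 75 bases cut every 25 bases were mapped with minimap2 2.31-r1302, where a mapping quality of 10 or more counted as unique. Statistics were tested on simulated data. Members and gene lists were chosen with earlier results of these data known. Named genes are those with 3 or more peaks, at the 10 widest peaks, at the 10 with most GATA and the 5 with most G4 motifs in the central 200 bp (ties by width), and up to 4 per gene list. Those genes with 2 peaks that are named, C17orf50 and the genes near the 1 kb limit were named after their values were seen. Some items are not reported here. A promoter peak was first taken as any overlap with the 1 kb around a start, and its midpoint was used once it was seen that a wide coding-exon peak could count as its own promoter peak.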

Additional observations from a re-analysis of the deposited data

How the results depend on the processing

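No paired analysis was possible because the list pools the replicates and holds no value per replicate, and for the same reason no replicate could be left out. With only starts of protein-coding transcripts counted, there were 307 coding-exon peaks and 17 genes with several, the G4 odds ratio was 2.21, and that of an own promoter peak 0.997. Beyond 2 kb from every start, 4 genes held several, the width odds ratio was 0.710 and the G4 odds ratio 2.07. With peaks at most 500 bp apart merged, 4 genes held several. With at least 50% of the peak coding, a rule that wide peaks in short exons can fail by width alone, the density ratio was 1.01. Among peaks of at least 200 bp, the own promoter odds ratio was 0.731. The G4 odds ratio was 2.97 over the whole peak, 3.75 in the central 400 bp, 1.87 with loops of up to 12 bases and 0.258 within GC classes. Within GC classes 2 of 12 short motifs passed the test, in place of 6, with SP at 0.586, KLF at 0.464 and STAT at 1.19. YY1 was 0.779 over the whole peak and 0.691 in the central 400 bp. Of the alternatives chosen after seeing the data, leaving out chromosome 19 gave a G4 odds ratio of 0.961, classes of distance from a start a density ratio of 1.12, and a promoter peak by any overlap an odds ratio of 0.704 (exact p = 0.0297) in place of 0.675. The causes were not tested. GC content kept its direction and its side of the threshold under every alternative run. Read depth is not part of the list, and how it limits the peaks was not analysed here.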
